A study of Mus musculus with 24 samples.

Results

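Lysosomal hydrolases and the machinery that acidifies the lysosome were followed here as a module of 45 genes. The genes were chosen by name for their place in the organelle, with earlier results of these data known. All 45 were among the 55291 gene names counted, all 45 had a mean of at least 10 reads, and all 45 were among the 16258 genes that passed the filter on low counts and were tested. The cells were pulmonary fibroblasts cultured from C57BL/6 mice, either wild type (WT) or labelled TLR4-/-, and were exposed for 24 h to PBS, to 1 μg/ml recombinant mouse cold-inducible RNA-binding protein (rmCIRP), to recombinant mouse TGF-β1 (rmTGF-β1) at 2 ng/ml or to both proteins. Each of these 8 conditions had 3 libraries of total RNA. CIRP outside the cell is a damage-associated signal that acts through the TLR4 receptor complex, and the study asked what it does to fibroblasts and whether TLR4 is needed.

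The cells of each genotype came from a pool of 3 to 4 lungs of mice aged 4 to 8 weeks and were used at passages 3 to 6. The labels do not say that libraries of a condition were separate cultures or animals, so the p-values measure only the spread between these libraries, which may be technical. Between 29853346 and 39664606 reads were counted on genes per library. Tlr4 mRNA was not lower in the libraries labelled TLR4-/-: with PBS its mean normalized count was 903 there and 759 in WT. A count over the whole gene cannot tell whether the deletion leaves a transcript, so it does not settle the genotype. The label is kept for that reason as a label. Xist, transcribed in female cells, averaged 4829.6 normalized counts in the labelled TLR4-/- and 2.33 in the WT libraries with PBS, so the sex composition of the pools differed too. All 10 fibroblast markers were counted in every condition. All 15 macrophage markers were counted as well, at a summed normalized count of 91624 to 100042 in WT and 350792 to 400213 in labelled TLR4-/- libraries with PBS, whereas Cd3e and Cd3g were at or near 0. Of the neutrophil markers, S100a9 was at 0 in all libraries and Elane at or near 0, and Mpo averaged 3.40 to 12.8 normalized counts by condition, but S100a8 was counted, with means of 132 normalized counts in WT and 151 in labelled TLR4-/- libraries with PBS. In such bulk RNA, fewer cells of a type and less RNA per cell cannot be told apart. Library 3 of the labelled TLR4-/- cells with both proteins stood apart from its replicates, with a chi-square per degree of freedom of 34.6 and 50.6 against them, where the most alike replicate pair of the series had 2.67. The next least alike was library 3 of the labelled TLR4-/- cells with rmTGF-β1, at 13.1 and 17.2 against its replicates.

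The lysosome is the acidic compartment in which cells break down proteins, glycans and lipids. Cathepsins and other proteases, glycosidases, sulfatases and lipid enzymes do the work, the vacuolar proton pump (V-ATPase) lowers the pH they need, and membrane glycoproteins such as LAMP1 line the wall. The transcription factors TFEB, TFE3 and MITF belong to a single family, bind E-box motifs in promoters of many lysosomal genes and raise their transcription. Macrophages are rich in lysosomes, and in fibroblasts secreted cathepsins and lysosomal collagen breakdown take part in matrix turnover.

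The promoters show the motif through which this family is known to act. Of the 45 genes, 38 had an entry in RefSeq's table of promoters (mouse build GRCm38.p6, 250 bases before to 50 after each start). The letters TCACGTGA, which read the same on both strands and contain the shorter CACGTG, occurred in 7 of these 38 genes (18.4%) and in 1.12% of the 27025 genes in the table. CACGTG occurred in 14 of 38 (36.8%) and in 8.09% of all genes. The following stretches, each 5′ to 3′ on the strand of its gene and ending before the start, are shown because they hold TCACGTGA, here in capitals. They belong to cathepsin D (chr7:142387869-142387976, minus strand), to the protective protein cathepsin A (chr2:164833710-164833772, plus strand), to the lysosomal calcium channel mucolipin 1 (chr8:3500423-3500518, plus strand), to the catalytic A subunit of the V-ATPase (chr16:44139334-44139441, minus strand) and to the membrane protein CLN3 (chr7:126583301-126583408, minus strand).
Ctsd: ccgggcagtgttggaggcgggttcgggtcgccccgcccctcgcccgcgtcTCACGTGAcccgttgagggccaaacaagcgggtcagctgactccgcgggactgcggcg
Ctsa: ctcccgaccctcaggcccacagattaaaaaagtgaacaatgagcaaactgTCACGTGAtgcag
Mcoln1: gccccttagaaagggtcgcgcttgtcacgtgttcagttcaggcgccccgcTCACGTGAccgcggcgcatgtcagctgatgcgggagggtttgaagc
Atp6v1a: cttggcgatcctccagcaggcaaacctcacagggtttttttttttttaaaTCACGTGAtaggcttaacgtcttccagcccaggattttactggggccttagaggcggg
Cln3: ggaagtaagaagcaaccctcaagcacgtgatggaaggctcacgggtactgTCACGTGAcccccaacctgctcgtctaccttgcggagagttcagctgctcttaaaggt
The other genes with TCACGTGA were Gla and Atp6v0d1. A match describes the letters and does not show a bound site, and the counts themselves carry no coordinates.

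Levels within the module spanned a wide range. Per kilobase of annotated exon (GENCODE M21), the most abundant mRNAs in WT cells with PBS were Psap, the precursor of the saposin activators, at 16216 ± 27.9 normalized counts per kb (SD, n = 3), Ctsd at 11149.5 ± 420.5, Lamp1 at 10778 ± 107 and Ctsb, the cysteine protease cathepsin B, at 8419 ± 238. The 3 lowest were Sgsh, the sulfamidase of heparan sulfate breakdown, at 64.7 ± 4.00, Mitf at 38.5 ± 3.50 and Tfeb at 28.6 ± 2.46 normalized counts per kb. Among the transcription factors, Tfe3 was at 269 ± 6.68 normalized counts per kb, well above Mitf and Tfeb. The levels of some genes are less certain, because the strand option of the counting is not given in the sources used here and the submitters' notes name the build NCBIM37, an earlier one than that of GENCODE M21, so that the exon lengths counted may differ: 34.4% of the exon length of Ctsd overlaps another gene on its own strand, and 26.8% of Ctsl, 21.6% of Sgsh and 17.4% of Ctsa overlap a gene on the opposite strand.

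The first comparison asked what rmCIRP did to the module in WT cells. The 3 transcription factors moved in different directions, the pump subunit gene Atp6v0d2 fell by more than any other member, and most hydrolases that passed the test were slightly lower. Of the 45 genes, 7 rose and 22 fell (15.6% and 48.9%) with an adjusted p under 0.1 by the quasi-likelihood F-test of edgeR, with p-values adjusted over all genes by the Benjamini-Hochberg method. Of all 16258 genes tested, 19.8% rose and 24.1% fell in this comparison. The median log2 fold change was -0.11 over the module and -0.02 over all genes. The changes were small: 23 of the 29 were under 0.3 in size on the log2 scale, and 3 reached 0.5. The genes that did not pass were Cln3, Ctsb, Ctss, Ctsl, Atp6v1b2, Atp6v1a, Lamp1, Ppt1, Naglu, Atp6v0d1, Grn, Cd63, Glb1, Lamp2, Gla and Ctso.

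**Figure D1:**
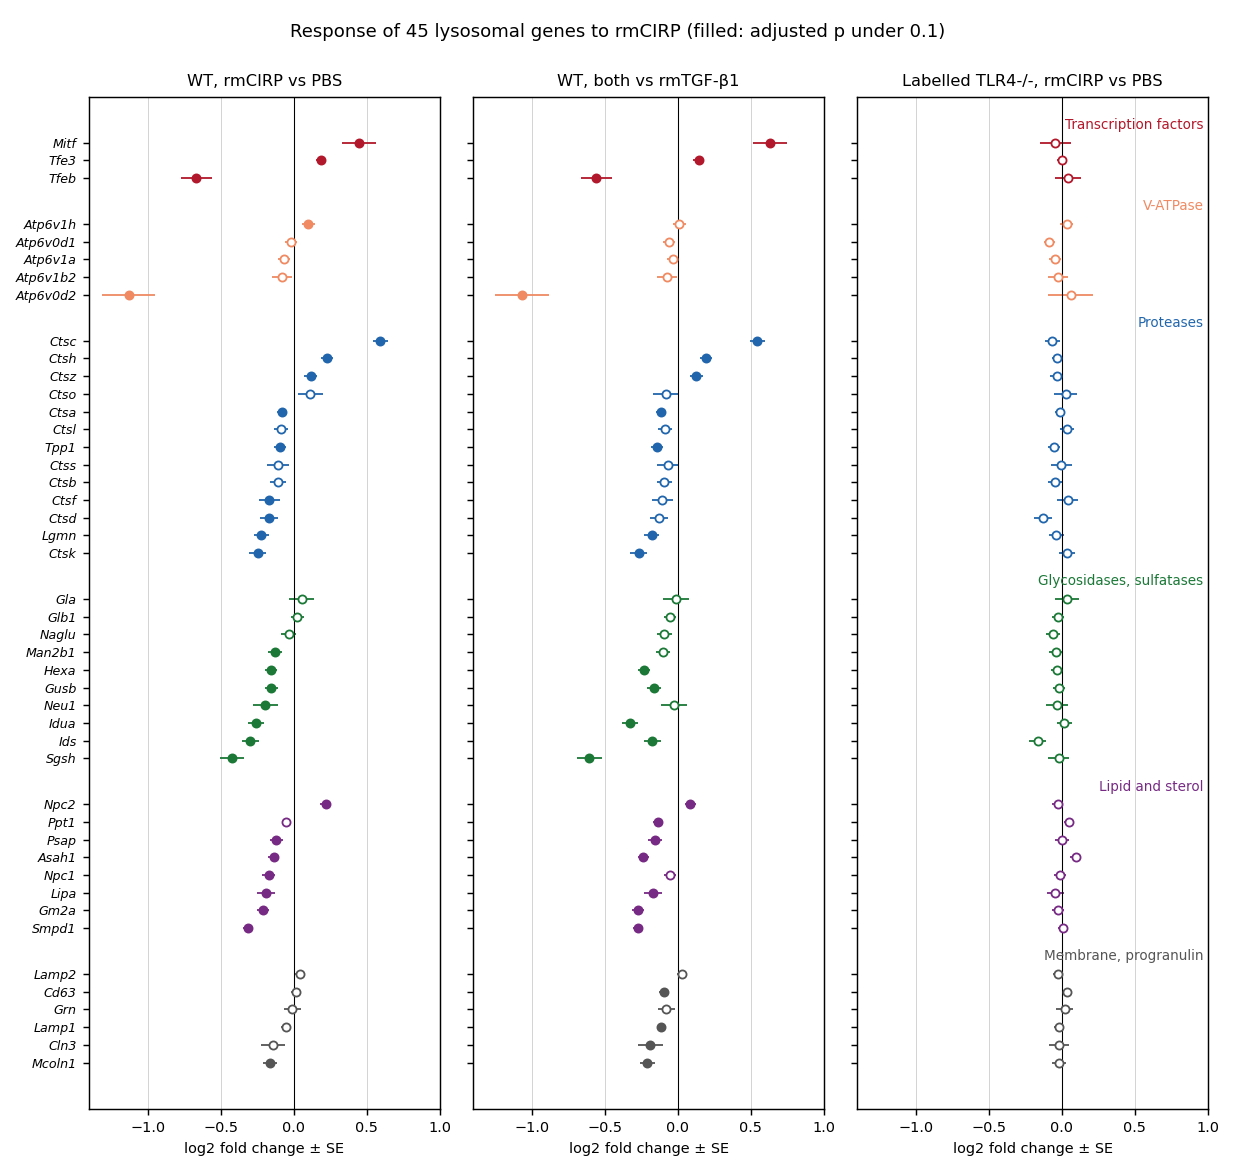
Log2 fold change (horizontal axis, bars are SE) of the 45 genes, grouped by role, for rmCIRP against PBS in WT cells, both proteins against rmTGF-β1 in WT cells, and rmCIRP against PBS in labelled TLR4-/- cells. Filled points passed an adjusted p under 0.1: 29 genes in the first panel, 27 in the second and 0 in the third, where all points lie between -0.17 and 0.10.

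Of the transcription factors, Tfeb had 149, 161 and 177 normalized counts in the PBS libraries (counts divided by the library's size factor) and 91.3, 105 and 111 in the rmCIRP libraries of WT cells. All rmCIRP libraries lay below all PBS libraries, a change of -0.67 on the log2 scale (SE 0.11, adjusted p = 3.8e-05, edgeR). Mitf went the other way, from 214, 251 and 252 to 341, 305 and 334, again without overlap, a change of 0.45 on the log2 scale (SE 0.11, adjusted p = 0.0034, edgeR). Tfe3, the most abundant of the family, rose less: it had 2518, 2533 and 2419 normalized counts with PBS and 2884, 2849 and 2789.8 with rmCIRP, a change of 0.18 on the log2 scale (SE 0.04, adjusted p = 0.00024, edgeR).

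Among the 5 V-ATPase genes, Atp6v0d2 encodes an alternative d subunit of the membrane sector that is known from osteoclasts and macrophages. It had 320.5, 353 and 368 normalized counts with PBS and 139, 169.8 and 168 with rmCIRP in WT cells. It fell by 54.3% and the libraries did not overlap (log2 fold change -1.13, SE 0.18, adjusted p = 4.3e-05, edgeR). Its widely expressed counterpart Atp6v0d1 had a log2 fold change of -0.02 and did not pass. The subunits of the catalytic head, Atp6v1a and Atp6v1b2, had values of -0.07 and -0.08 and did not pass either, and Atp6v1h, the regulatory H subunit, rose by 0.10 (adjusted p = 0.074).

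Of the 13 proteases, 3 rose and 6 fell. Ctsc encodes cathepsin C, the dipeptidase that activates granule serine proteases of immune cells. It rose from 3430.1, 3819.8 and 3739.7 normalized counts with PBS to 5645, 5295 and 5679 with rmCIRP, without overlap, a change of 0.59 on the log2 scale (SE 0.05, adjusted p = 5.3e-09, edgeR). Ctsh, an aminopeptidase of the lysosome, had 1076, 1080.2 and 1122 with PBS and 1278, 1272 and 1307 with rmCIRP. That was a rise of 0.23 (SE 0.04, adjusted p = 9.6e-05), and Ctsz rose by 0.12. The collagen-degrading cathepsin K (Ctsk) fell by 0.25 on the log2 scale, legumain (Lgmn), which processes other cathepsins, by 0.22, Ctsd by 0.17, Ctsf by 0.17, the tripeptidyl peptidase Tpp1 by 0.10 and Ctsa by 0.08. The invariant-chain protease cathepsin S (Ctss) and the abundant Ctsb and Ctsl had values of -0.11, -0.11 and -0.09 and did not pass.

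None of the 10 glycosidases and sulfatases rose and 7 fell. Sgsh had 275, 276 and 306 normalized counts with PBS and 199, 235 and 207 with rmCIRP. The libraries did not overlap, and the change was -0.42 on the log2 scale (SE 0.08, adjusted p = 0.00042, edgeR). The sulfatase Ids and the iduronidase Idua, which act on heparan and dermatan sulfate, fell by 0.30 and 0.26. The sialidase Neu1 fell by 0.19, the glucuronidase Gusb by 0.15, the hexosaminidase subunit Hexa by 0.15 and the mannosidase Man2b1 by 0.13. Naglu, Glb1 and Gla lay between -0.03 and 0.05.

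Of the 8 genes for lipid and sterol handling, 1 rose and 6 fell. Npc2, the soluble protein that hands cholesterol to the membrane protein NPC1, had 11506, 11680.0 and 11487 normalized counts with PBS and 13776, 12728 and 14033 with rmCIRP, a rise of 0.22 (SE 0.04, adjusted p = 7.3e-05, edgeR). Npc1 itself fell by 0.17. Smpd1, the acid sphingomyelinase, fell from 2185, 2174 and 2228 to 1885, 1723 and 1726, without overlap, by 0.31 on the log2 scale (SE 0.04, adjusted p = 3.2e-07). Its lipid-degrading neighbours in the list also fell, the GM2 activator Gm2a by 0.21, the acid lipase Lipa by 0.19, the acid ceramidase Asah1 by 0.14 and Psap by 0.12. In the group of membrane proteins and progranulin, 1 of 6 fell, Mcoln1 by 0.16. The structural glycoproteins Lamp1 and Lamp2 were at -0.05 and 0.04, the tetraspanin Cd63 at 0.01 and progranulin (Grn) at -0.01, and none of these passed.

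**Figure D2:**
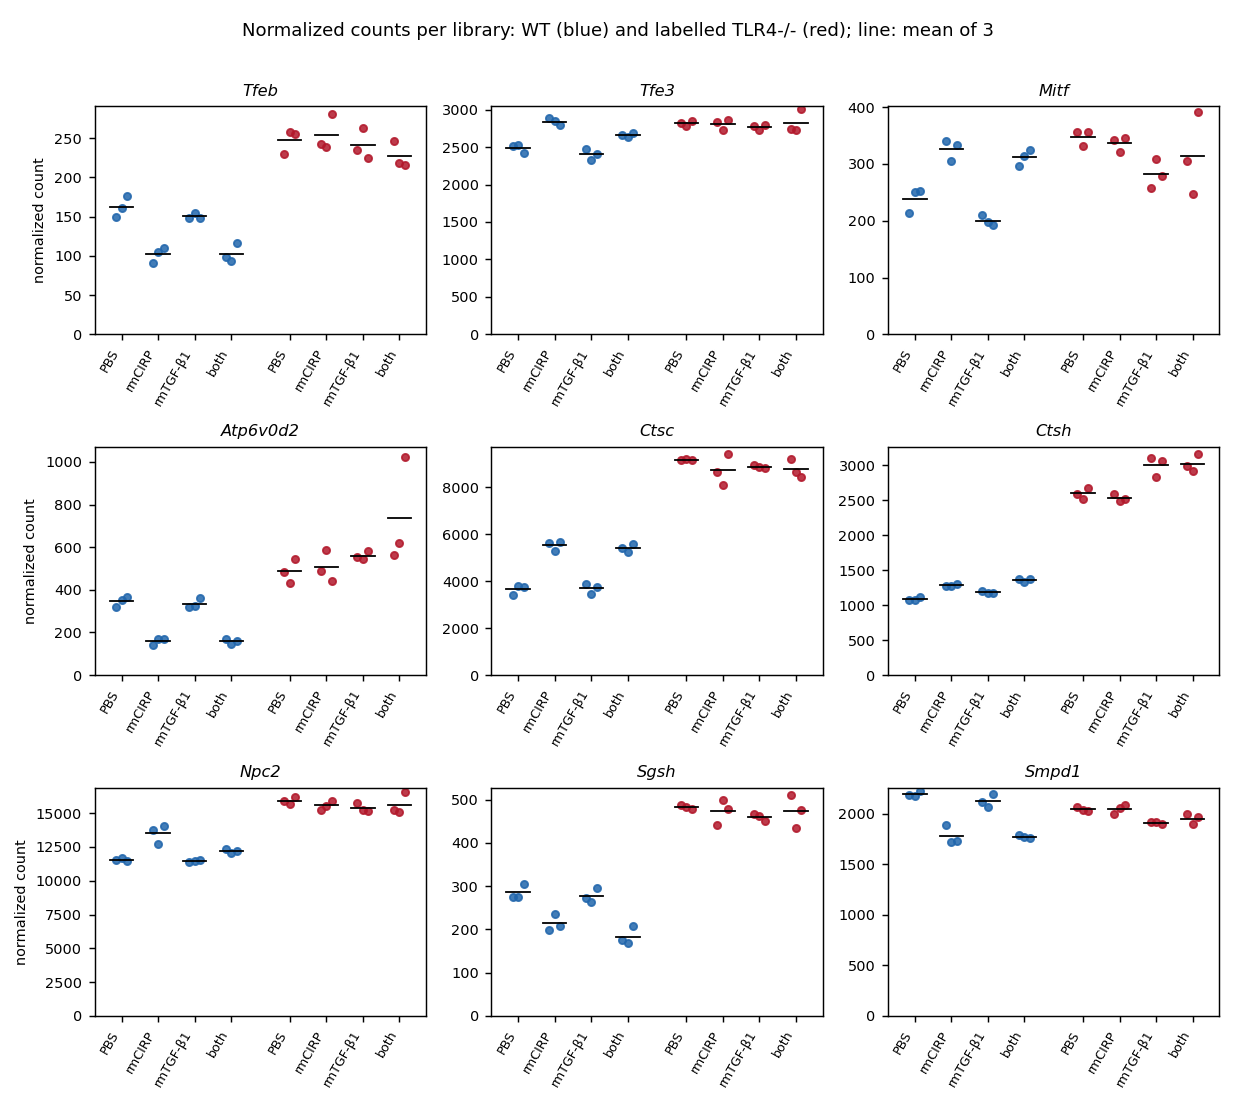
Normalized counts (vertical axis, from 0) of 9 genes in the 24 libraries, by treatment, with WT in blue and labelled TLR4-/- in red; each point is a library and each line the mean of 3. In WT the rmCIRP and the combined libraries lie apart from PBS and rmTGF-β1, with Atp6v0d2 means of 159 and 159.8 against 347 and 333, and the library of labelled TLR4-/- cells at 1025 is the one that stands apart from its replicates.

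Reads from genes of the module made up 1.04% ± 0.00763 of the gene reads of a library (SD, n = 3) in WT cells with PBS and 0.967% ± 0.00784 with rmCIRP, without overlap between libraries. This is a share of library totals. With scaling by library totals alone, the median log2 fold change was -0.06 over all genes and -0.15 over the module. Of the 7 genes with TCACGTGA in the promoter, 0 rose, 3 fell (Ctsd, Mcoln1 and Ctsa) and 4 did not pass, with a median of -0.08. Of the 24 genes in the promoter table without CACGTG, 5 rose, 13 fell and 6 did not pass, with a median of -0.11. Markers of other cells moved in the same comparison. Of the 15 macrophage markers, 5 rose and 10 fell, among them Cd14 by 1.70 and Adgre1 by 0.98 upwards and Csf1r at -0.52 and Mrc1 at -0.71 downwards. Their summed count went from 91624 to 100042 with PBS to 80888 to 86276 with rmCIRP, a sum made up mostly of Lyz2, whose mean went from 78175 to 62462. The sum of the 5 defining markers Adgre1, Csf1r, Ptprc, Itgam and Tyrobp went the other way, from 7320 to 8207 up to 8364 to 9162, without overlap. These 5 did not move together: Adgre1 and Ptprc rose, by 0.98 and 0.56, and Csf1r, Itgam and Tyrobp fell, at -0.52, -0.32 and -0.39. The mean of Adgre1 went from 2033 to 4014 normalized counts. Of the 10 fibroblast markers, 2 rose and 6 fell, with values from -0.40 to 0.34. All 3 smooth muscle markers fell, with values from -0.83 to -0.42, and S100a8 rose by 1.04. The part of these shifts in the changes of the module was not tested.

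Other lysosomal genes came from a list of 64, of which 62 were tested. With rmCIRP in WT cells, 10 rose and 21 fell (16.1% and 33.9%), with a median of -0.05. The shares were 15.6% and 48.9% for the 45 genes and 19.8% and 24.1% for all genes tested. The 4 named next were chosen after their values were seen. Acp5, the tartrate-resistant acid phosphatase, rose from a mean of 139 normalized counts (lowest 111, highest 159.7) to 618 (lowest 581, highest 655), a change of 2.15 on the log2 scale (SE 0.12, adjusted p = 2.8e-12, edgeR). Cst7, an inhibitor of cathepsins, rose from 9.29 to 51.1 normalized counts, by 2.44 on the log2 scale (SE 0.30). Tcirg1, which encodes an a-type subunit of the V-ATPase membrane sector, went from 2849 to 5456 and rose by 0.93 (SE 0.06), in the opposite direction to Atp6v0d2 of the same sector. Pla2g15, the lysosomal phospholipase, fell from 4015 to 2554 normalized counts, by 0.66 (SE 0.07). Of the 6 listed regulators of the transcription factors, Rraga rose and Rragd fell.

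Whether the response also occurred in the presence of rmTGF-β1 was asked by comparing cells given both proteins with cells given rmTGF-β1 alone, which are different libraries from those above. With rmTGF-β1 present, 6 of the 45 genes rose and 21 fell, where 20.5% of all genes rose and 21.7% fell. The median was -0.10. Atp6v0d2 had 318, 322 and 360.1 normalized counts with rmTGF-β1 and 170.3, 147 and 162 with both proteins (log2 fold change -1.06, SE 0.19, adjusted p = 0.00011, edgeR). Tfeb had 148, 155 and 149 against 98.9, 92.8 and 116, a change of -0.56 on the log2 scale (SE 0.11, adjusted p = 0.00036). In both genes all libraries with rmCIRP were below all without it.

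Mitf rose by 0.63 (SE 0.12, adjusted p = 0.00019, edgeR), from 209.8, 198 and 193 to 296, 315 and 325 normalized counts. Ctsc rose by 0.55 (SE 0.05), from 3867, 3446 and 3769 to 5415, 5240.1 and 5571. Ctsh rose by 0.19 and Tfe3 by 0.14, and their libraries did not overlap either, at 1174 to 1200.3 against 1329 to 1372 for Ctsh and 2329 to 2476 against 2640.3 to 2686 for Tfe3. Among the glycan enzymes, Sgsh fell from 273, 264 and 297 to 175, 168 and 207 (log2 fold change -0.61, SE 0.09, adjusted p = 1e-05). Idua fell from 647, 686 and 669 to 543, 559 and 501 (log2 fold change -0.32, SE 0.05, adjusted p = 5.3e-05). By role, 3 of 13 proteases rose and 4 fell, 5 of 10 glycosidases and sulfatases fell, 6 of 8 lipid genes fell and 1 rose, and 4 of 6 membrane genes fell, namely Mcoln1, Cln3, Lamp1 and Cd63.

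**Figure D3:**
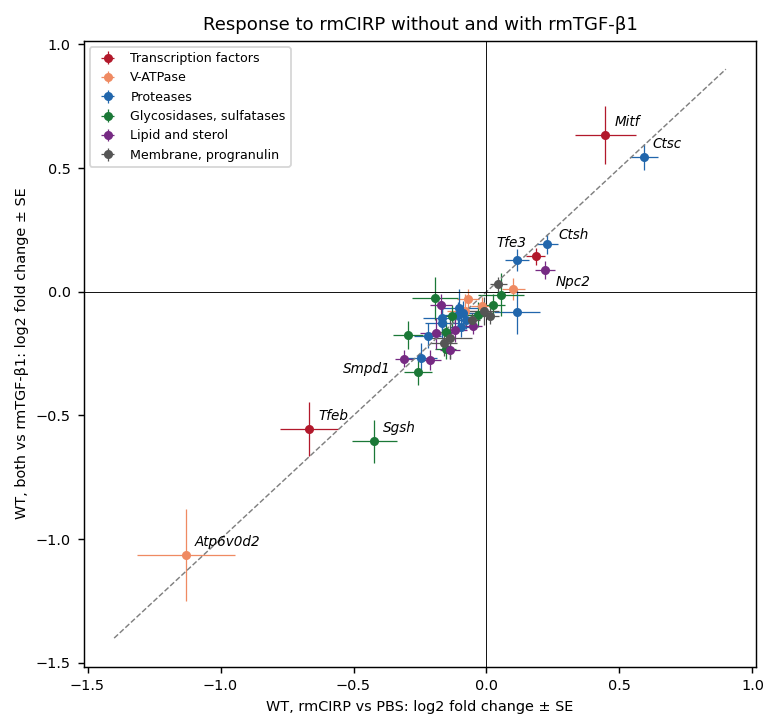
Log2 fold changes of the 45 genes for rmCIRP against PBS (horizontal axis) and for both proteins against rmTGF-β1 (vertical axis) in WT cells, with SE bars, coloured by role; the dashed line marks equal values. Most genes lie near the line, from Atp6v0d2 at -1.13 and -1.06 to Ctsc at 0.59 and 0.55.

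The 2 comparisons gave similar log2 fold changes. Of the 45 genes, 23 passed in both, 17 lower and 6 higher, and none of these changed direction. Of all 16258 genes tested, 5235 passed in both, and 5219 of these kept their direction. The sign was shared by 41 of 45 (91.1%), against 81% of all genes tested. Across the 45 genes the Pearson correlation was 0.95, where all genes had 0.889; genes are not independent replicates, and these values are descriptions. A direct test of the interaction of rmCIRP with rmTGF-β1 found 0 of the 45 genes at an adjusted p under 0.1, where 0.0492% of all genes passed. At an unadjusted p under 0.05 there were 2 of the 45, Npc2 and Cd63, where 5.64% of all genes were under it. DESeq2 called 0 of the 45. For Tfeb, Tfe3 and Mitf the interaction was 0.11 (95% interval -0.21 to 0.43), -0.04 (-0.15 to 0.06) and 0.19 (-0.15 to 0.53) on the log2 scale. Of the other lysosomal genes, 10 rose and 28 fell with rmCIRP in the presence of rmTGF-β1, Acp5 by 2.47 and Tcirg1 by 0.89 upwards. Of the 15 macrophage markers, 5 rose and 8 fell.

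rmTGF-β1 by itself changed few of these genes. In WT cells, where 12.4% of all genes passed in either direction, 1 of the 45 rose and 1 fell. Ctsh had 1076, 1080.2 and 1122 normalized counts with PBS and 1200.3, 1174 and 1177 with rmTGF-β1, a change of 0.11 on the log2 scale (SE 0.04, adjusted p = 0.093, edgeR). Lipa had 4581, 4805 and 4825 against 4235, 4035 and 4229, a change of -0.19 on the log2 scale (SE 0.06, adjusted p = 0.057). The libraries of both genes did not overlap, but neither call is firm: Ctsh was lost in DESeq2, without the filter on low counts and in 14 of the 24 fits that left out 1 library, and Lipa was lost when WT PBS library 2 or 3 or WT rmTGF-β1 library 2 was left out, with values from -0.21 to -0.17 over the 24 fits. The transcription factors did not pass, with log2 fold changes of -0.11 for Tfeb (95% interval -0.32 to 0.10), -0.05 for Tfe3 (-0.13 to 0.02) and -0.26 for Mitf (-0.51 to -0.01, adjusted p = 0.20).

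In the cells labelled TLR4-/-, rmTGF-β1 changed 8 of the 45, 4 higher and 4 lower, where 23.9% of all genes passed. Ctsh rose from 2593, 2523 and 2678 to 3106, 2831 and 3056 normalized counts (log2 fold change 0.21, SE 0.04, adjusted p = 0.00029, edgeR), and Ids fell from 1894, 2013 and 1832 to 1574, 1568 and 1583 (log2 fold change -0.27, SE 0.06, adjusted p = 0.0016). Neither gene had overlapping libraries. Ctss rose by 0.18, Grn by 0.17 and Cd63 by 0.08, and Mitf fell by 0.30, Lipa by 0.20 and Smpd1 by 0.09, with adjusted p from 0.021 to 0.086. These 6 calls are less firm. With 1 library left out, Cd63 was lost in 12 of 24 fits, Ctss and Smpd1 in 6 each, Mitf in 4, Grn in 3 and Lipa in 1. Among the other alternatives, Cd63 was lost in 5 and Ctss, Grn and Smpd1 in 2 each. The calls of Ctsh and Ids held throughout. Tfeb and Tfe3 were at -0.04 and -0.02 and did not pass. With the libraries scaled by their totals alone, 1 rose and 6 fell, and with RLE scaling 3 rose and 5 fell, so the split by direction depends on the scaling. The difference between genotypes in this response was 0 of 45 at an adjusted p under 0.1, where 0.0861% of all genes passed. At an unadjusted p under 0.05 there were 4 of the 45, where 10.4% of all genes were under it. DESeq2 called 0 of the 45. For Tfeb, Tfe3 and Mitf that difference was 0.07 (95% interval -0.21 to 0.36), 0.03 (-0.07 to 0.14) and -0.04 (-0.38 to 0.30).

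rmCIRP gave no call in the cells labelled TLR4-/-. None of the 45 passed, as none of the 16258 genes did (0%), and DESeq2 also called 0 of the 45. At an unadjusted p under 0.05 there were 3 of the 45, Ids, Asah1 and Atp6v0d1, where 6.99% of all genes were under it. The log2 fold changes lay between -0.17 and 0.10, and for 44 of the 45 genes the 95% interval lay within 0.3 on either side of 0. Atp6v0d2 had 486, 433 and 546 normalized counts with PBS and 491, 588 and 443 with rmCIRP, and its interval was the widest upwards, to 0.38. Tfeb had 230.2, 258 and 256 against 243, 239 and 281, a difference of 0.04 (95% interval -0.15 to 0.23). Tfe3 was at 0.00 (-0.07 to 0.07), a value whose sign changed with the scaling, and Mitf at -0.04 (-0.27 to 0.18). In each of these genes the libraries of the 2 treatments overlapped. None of the other 62 lysosomal genes passed, 4 of them were under 0.05 unadjusted, and none of the 15 macrophage markers passed.

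With rmTGF-β1 present, the addition of rmCIRP to labelled TLR4-/- cells changed 0 of the 45, where 2.69% of all genes passed. At an unadjusted p under 0.05 there were 8 of the 45, where 17.9% of all genes were under it. DESeq2 called 1 of the 45, lower. Some values in this comparison depend on the library that stands apart. Atp6v0d2 had 563, 620.3 and 1025 normalized counts in the libraries with both proteins, the last in library 3, and 556, 545 and 581 with rmTGF-β1. Mitf had 306, 247 and 391 with both and 258, 309 and 278 with rmTGF-β1, a log2 fold change of 0.15 (95% interval -0.08 to 0.38) that became -0.04 without library 3. Tfe3 went from 0.03 to -0.02 without it, and Tfeb was at -0.09 (-0.28 to 0.10). No gene of the 45 passed without library 3, whereas 5 rose and 1 fell without library 1 or without library 2, and 2 fell without library 3 of the rmTGF-β1 cells. The module took 1.87% of gene reads in library 3 and 1.69% and 1.61% in the other two. Of the other lysosomal genes, 1 passed, the V-ATPase gene Atp6v1d, which was lower.

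The response to rmCIRP was then compared between genotypes in a single test. In 16 of the 45 genes it differed, with 10 values higher and 6 lower in the labelled TLR4-/- cells, where 17.1% and 14.3% of all genes tested were higher and lower. Atp6v0d2 and Tfeb led the first group and Ctsc and Mitf the second. The difference, as the log2 fold change in labelled TLR4-/- cells minus that in WT cells, was 1.19 for Atp6v0d2 (SE 0.24, adjusted p = 0.00087, edgeR), 0.71 for Tfeb (SE 0.14, adjusted p = 0.00072), -0.66 for Ctsc (SE 0.07, adjusted p = 4.5e-07) and -0.49 for Mitf (SE 0.16, adjusted p = 0.025). It was 0.40 for Sgsh (SE 0.11, adjusted p = 0.012), 0.32 for Smpd1 (SE 0.05, adjusted p = 4.8e-05) and -0.18 for Tfe3 (SE 0.05, adjusted p = 0.0093).

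For Ctsc, the rmCIRP libraries of labelled TLR4-/- cells had 8663, 8105 and 9417 normalized counts and the PBS libraries 9159.9, 9194 and 9159.6. For Sgsh these were 442, 500.2 and 478 against 487, 482 and 479, and for Smpd1 2002, 2056 and 2089 against 2068, 2041 and 2022. In all 3 genes they overlapped, in contrast to the WT libraries above. By role, the test passed for 3 of 3 transcription factors, 5 of 13 proteases, 2 of 10 glycosidases and sulfatases, 5 of 8 lipid genes, 1 of 5 V-ATPase genes and 0 of 6 membrane genes. Scaled by library totals alone, 17 were higher and 5 lower, which moved the share of higher calls from 62.5% to 77.3%. Library 3 of the labelled TLR4-/- cells with both proteins was not compared here. It entered the filter, the scaling and the shared estimate of spread. Without it, 16 were higher and 6 lower. Among the other lysosomal genes, 14 were higher and 10 lower. Among the 15 macrophage markers, 8 were higher and 5 lower, and their part in these differences was not tested.

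The largest shift of the module lay between the genotypes with PBS. In the libraries labelled TLR4-/-, 39 of the 45 genes were higher and 1 was lower than in WT, where 23.2% of all genes were higher and 24% were lower. The median log2 fold change was 0.58, against -0.02 over all genes. It reached 0.5 in 25 genes and 1 in 10. The module took 1.68% ± 0.0712 of gene reads in labelled TLR4-/- libraries (SD, n = 3) and 1.04% in WT libraries.

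**Figure D4:**
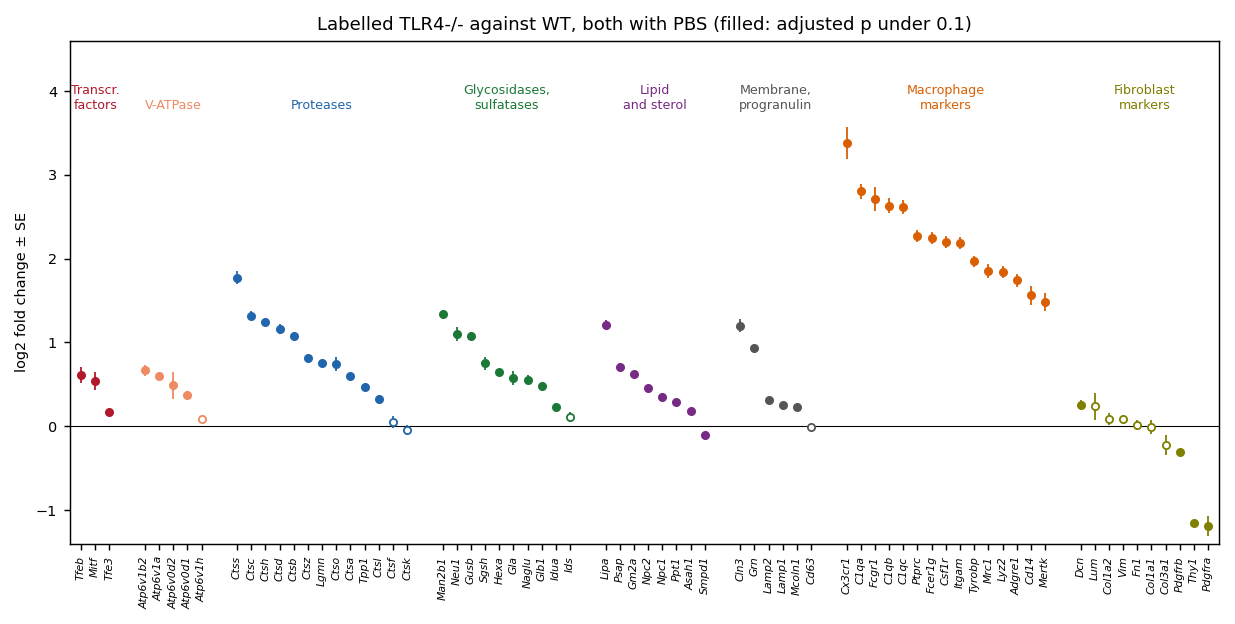
Log2 fold change (vertical axis, bars are SE) of labelled TLR4-/- against WT libraries, both with PBS, for the 45 genes by role, 15 macrophage markers and 10 fibroblast markers; filled points passed an adjusted p under 0.1. Of the 45 genes, 39 lie above 0 as filled points, up to Ctss at 1.77, and all 15 macrophage markers lie between 1.49 and 3.38.

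Proteases led the order. Ctss had 3272, 3400.5 and 3294 normalized counts in WT and 11361, 10788 and 12003 in labelled TLR4-/- libraries, 3.42-fold (log2 fold change 1.77, SE 0.08, adjusted p = 7.5e-15, edgeR). Ctsc had 3430.1, 3819.8 and 3739.7 against 9159.9, 9194 and 9159.6, 2.50-fold (log2 fold change 1.32, SE 0.05). Ctsh had 1076, 1080.2 and 1122 against 2593, 2523 and 2678, 2.37-fold (log2 fold change 1.25, SE 0.04). The libraries of the 2 genotypes were far apart in each. Ctsd and Ctsb, both also high per kilobase, were higher by 1.16 and 1.07. In contrast, Ctsk and Ctsf had values of -0.05 and 0.05 and did not pass.

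Among the glycan enzymes, the mannosidase Man2b1 had 2791, 2596 and 2641 normalized counts in WT and 6489.6, 6669.7 and 7242 in labelled TLR4-/- libraries, a change of 1.34 on the log2 scale (SE 0.05, adjusted p = 4.1e-16, edgeR). Neu1 was higher by 1.10, Gusb by 1.08 and Sgsh by 0.75. The X-linked genes were unequal, at 0.58 for Gla, 0.31 for Lamp2, 0.17 for Tfe3 and 0.11 for Ids, of which Ids did not pass. Of the lipid genes, Lipa was higher by 1.21, Psap by 0.71 and Npc2 by 0.46. Smpd1 was the single gene that was lower, at 2185, 2174 and 2228 in WT and 2068, 2041 and 2022 in labelled TLR4-/- libraries (log2 fold change -0.11, SE 0.03, adjusted p = 0.017), a call lost without the filter on low counts and without labelled TLR4-/- PBS library 3. Cln3 and Grn were higher by 1.20 and 0.93, whereas Lamp1 was higher by 0.26 and Cd63, at -0.01, did not pass.

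All 3 transcription factors were higher, Tfeb by 0.61 (SE 0.10, adjusted p = 2e-05, edgeR), Mitf by 0.54 (SE 0.11, adjusted p = 0.0005) and Tfe3 by 0.17 (SE 0.04, adjusted p = 0.00035). Of the V-ATPase genes, Atp6v1b2 was higher by 0.67, Atp6v1a by 0.60, Atp6v0d2 by 0.49 and Atp6v0d1 by 0.38, and Atp6v1h, at 0.09, did not pass. Of the other lysosomal genes, 48 were higher and 2 lower, with the macrophage-associated Laptm5 and Cd68 at 2.41 and 1.89. All 15 macrophage markers were higher, with a median of 2.20. Of the 10 fibroblast markers 1 was higher and 3 were lower, Pdgfra and Thy1 at -1.19 and -1.16. Of the smooth muscle markers, Myh11 and Cnn1 were lower at -1.08 and -0.72 and Des was higher at 1.22, and the summed count of the 4 endothelial markers was 623 to 913 in WT and 289.7 to 378 in labelled TLR4-/- libraries. These markers moved with the genotype label, as did Xist, and their part in the difference was not tested. Genotype, sex and the pool of lungs cannot be told apart in this design.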

How the data were processed

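For each of the 24 libraries the authors deposited raw HTSeq counts, by gene symbol and without normalization; per the labels, the RNA came from a stranded total RNA kit and the processing notes name the build NCBIM37. Libraries were grouped by their titles and none was left out. The 5 tally lines of each file, between 14.5% and 16.1% of its reads, were dropped. The study's methods used a count model at a false discovery rate of 0.1, and the same threshold was kept.

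The fit used edgeR 4.0.16 under R 4.3.3. Low counts were filtered by filterByExpr, which kept 16258 of 34285 genes with a count, TMM scaled the libraries, and all 24 libraries entered a model of 8 condition means. For 10 contrasts, edgeR's quasi-likelihood F-test gave p-values, adjusted over every gene in the fit by the Benjamini-Hochberg method. The common biological coefficient of variation was 0.0571. SE is the size of the log2 fold change over the square root of F. Normalized counts use size factors from DESeq2 1.42.0. The test script was checked on simulated data. Alternatives were DESeq2, RLE, no filter, a mean count of 10 as the filter, the replicate block, only the libraries compared, each library left out and, chosen after seeing the data, scaling by library totals.

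The 45 genes, their roles, the other lysosomal genes and the marker lists were chosen with earlier results of these data known. Values of every library are given for at most the 4 largest rises and the 4 largest falls among genes that passed at a mean normalized count of 50 or more, for up to 6 genes in differences between genotypes, and for the transcription factors. Exon lengths and overlaps are from GENCODE M21 and promoters from RefSeq.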

Additional observations from a re-analysis of the deposited data

Results flagged for a closer look

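A genotype difference in how cells responded to rmCIRP, by a direct test at an adjusted p under 0.1 in edgeR, drew attention to 16 of the 45 genes. Given as the log2 fold change in labelled TLR4-/- cells minus that in WT cells, it was positive in 10: 1.19 for Atp6v0d2, 0.71 for Tfeb, 0.40 for Sgsh, 0.32 for Smpd1, 0.28 for Ctsk, 0.27 for Idua, 0.23 for Asah1, 0.18 for Lgmn, 0.18 for Gm2a and 0.16 for Npc1. All of these fell with rmCIRP in WT cells. It was negative in 6, which rose in WT cells: -0.66 for Ctsc, -0.49 for Mitf, -0.26 for Ctsh, -0.25 for Npc2, -0.18 for Tfe3 and -0.15 for Ctsz. The 10 and 6 genes were 22.2% and 13.3% of the 45, where 17.1% and 14.3% of all 16258 genes tested were higher and lower. None of the 16 passed with rmCIRP in labelled TLR4-/- cells, as none of the 16258 genes did. Sex, the pool of lungs and the level of macrophage markers differed between the genotypes as well, and their part was not tested.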

How the results depend on the processing

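Direction and side of the threshold held in 1740 of the 1829 values of single genes over the alternatives, 65 lost and 2 gained the threshold and 22 changed sign; 568 of 620 counts stayed within 1.5 times, and 52 moved. The causes of these shifts were not tested. For rmCIRP in WT cells, 5 to 7 genes rose and 16 to 27 fell when a library was left out, and with rmTGF-β1 present 4 to 6 rose and 19 to 27 fell. For rmTGF-β1 in WT cells the count of genes that rose was 0 with DESeq2, 0 without the filter and 0 with library totals, and 3 rose and 3 fell when only the libraries compared were fitted. With a library left out, 0 to 2 rose and 0 to 5 fell, the 5 without labelled TLR4-/- library 3 with both proteins. For rmTGF-β1 in labelled TLR4-/- cells 2 rose with a mean count of 10 as the filter, 2 when only the libraries compared were fitted and 1 with library totals. With a library left out, 1 to 4 rose and 1 to 6 fell, the lowest without labelled TLR4-/- PBS library 1 or 2 or rmTGF-β1 library 1 (1 rose) and without rmTGF-β1 library 3 (1 fell). For rmCIRP with rmTGF-β1 in labelled TLR4-/- cells, 3 rose without the filter, 1 fell with DESeq2, and 0 to 5 rose and 0 to 2 fell with a library left out. Between genotypes with PBS, 0 were lower without the filter, and 0 to 1 with a library left out. For the difference in the rmCIRP response, 17 were higher with library totals and 8 to 16 with a library left out, and for that in the rmTGF-β1 response 1 was lower without the filter. Values near 0 changed sign. For Tfe3 with rmCIRP in labelled TLR4-/- cells they were -0.0039 with DESeq2, -0.0025 with RLE, -0.0038 without the filter, -0.00092 with a mean count of 10, -0.0017 with library totals and -0.0095 to 0.0139 with a library left out; for the difference in the rmTGF-β1 response of Tfe3 the value was -0.0036 without the filter. With a library left out, Tfeb ranged from -0.0314 to 0.078 with rmCIRP and from -0.1003 to 0.013 with rmTGF-β1 in labelled TLR4-/- cells, Tfe3 from -0.0198 to 0.0501 and Mitf from -0.0354 to 0.2995 with both proteins against rmTGF-β1, and the difference in the rmTGF-β1 response of Mitf from -0.1029 to 0.0177.

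Same-numbered libraries of different conditions share a number in their titles. Over 84 such pairs the correlation of their deviations from the condition means averaged 0.012, from -0.12 to 0.37, with 4 over 0.1, so the numbers were not taken to pair the libraries. With the replicate block, 7 genes rose and 23 fell with rmCIRP in WT cells, 6 rose and 23 fell with rmTGF-β1 present, 11 were higher and 6 lower in the difference of the rmCIRP response, and 1 gene fell with both proteins against rmTGF-β1 in labelled TLR4-/- cells. At 3 libraries per condition the median SE over the module was near 0.05 on the log2 scale for comparisons of single conditions. It was 0.067 for the differences between genotypes in a response and for the interaction. Changes of the size of an SE were too small to detect, and larger ones could also be missed. Mitf, at -0.26 with rmTGF-β1 in WT cells, did not pass. The smallest detectable change was not worked out.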

Other observations

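Other lysosomal genes were counted by group, and the genes named here were chosen after their values were seen. With rmCIRP in WT cells, 1 of 21 further hydrolases and activators rose (Acp5) and 10 fell, among them the galactosylceramidase Galc by 0.39 and the sulfatase Arsa by 0.22 on the log2 scale. Of 13 further membrane proteins and transporters, 3 rose and 7 fell. The chloride exchanger gene Clcn7 rose by 0.35 (SE 0.06, adjusted p = 7.7e-05, edgeR), and the gene of its partner subunit, Ostm1, fell by 0.23 (SE 0.04, adjusted p = 0.00016). The cystine exporter Ctns fell by 0.37, and Slc11a1, a metal transporter of phagocytes, rose by 0.33. Of 6 sorting genes, the receptor Sort1 fell by 0.36 (SE 0.06) and Gnptab rose by 0.14. Of 13 further V-ATPase genes, 2 rose (Tcirg1 and Atp6v1e1) and 1 fell (Atp6v1d).

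Between genotypes with PBS, 17 of these 21 hydrolases, 11 of 13 V-ATPase genes, 9 of 13 membrane proteins, 4 of 6 sorting genes, 4 of 6 regulators and 3 of 3 cathepsin inhibitors were higher in labelled TLR4-/- libraries. Cst7 was at 53.4 normalized counts there with PBS, and WT cells had 9.29 with PBS and 51.1 once rmCIRP was added.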
